A study of Mus musculus with 8 samples.

Results

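Transcript levels of 41 germline and meiosis genes were examined in whole mouse embryos of day 8.5 of gestation (E8.5). There were 8 embryos, and each was hybridised to 1 Agilent SurePrint G3 Mouse GE array. The genes were taken from a fixed list of names, and their probes were every non-control probe whose RefSeq accession belonged to a listed gene. This gave 48 probes for 40 of the 41 genes, out of 55681 distinct probes on the array, and no probe carried an accession of *Piwil4*. The mice carried the hypomorphic *Eed* allele l7Rn5-1989SB on a C57bl6/129 background, and EED is a core component of Polycomb Repressive Complex 2 (PRC2), which places the repressive histone mark H3K27me3. The embryos of both groups were heterozygous for this allele and had wild-type mothers. Homozygous *Eed* hypo/hypo males (HOM fathers) had sired 4 of them, and *Eed* hypo/wt males (HET fathers) the other 4. Each group held 2 female and 2 male embryos. The question was whether impaired EED function in the paternal germline altered gene expression in genetically matched offspring.

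The methods describe a line that also carried an *Oct4*GFP transgene and pairs of brothers as sires, so embryos of a group may share a father, and the files do not name the sires. Sample identifiers begin with a number that HOM father embryos 3 and 4 share, as do HET father embryos 1 and 2, and its meaning is not stated. As a random block it had a consensus correlation of 0.301. The p-values treat the embryos as independent, and therefore measure the spread between these embryos and not between fathers. All HOM father arrays lay on 1 slide and all HET father arrays on another, and slide and father genotype cannot be told apart. In whole embryos, fewer cells of a type and less RNA per cell also cannot be told apart. Among all probes, 50.7% to 59.7% were well above background on an array, and 29720 probes (53.4%) were tested. Markers of the labelled stage were present, with the 10 probes of 7 primitive streak, somite, heart, node and endoderm genes (*T*, *Meox1*, *Tbx6*, *Nkx2-5*, *Hoxb1*, *Foxa2* and *Sox17*) detected in all 8 embryos.

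At this stage the germline consists of a small population of primordial germ cells that migrate along the hindgut, while all other cells of the embryo are somatic or extraembryonic. Primordial germ cells are specified under PRDM1 (BLIMP1) and kept alive by NANOS3 and DND1. The genes of meiosis and of the piRNA pathway, which silences transposable elements in the germline, are normally switched on later in the gonad. In somatic cells many of them are kept silent by DNA methylation at promoters rich in CpG dinucleotides and by a repressor complex containing E2F6, MGA and MAX, of which MGA and MAX bind the E-box CACGTG.

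To describe the promoter sequences of these genes, the 250 bases before the annotated start were searched on both strands for the E-box CACGTG and for the E2F-like motif GCGGGA. These motifs can share at most 1 base. Windows were available for 36 of the 41 genes (RefSeq, GRCm38.p6), taking the first listed start of each gene. The E-box was present in 12 of the 36 windows (33.3%), against 6.05% of the windows of all 27025 genes. The E2F-like motif was present in 13 of the 36 (36.1%), against 16.9% of all genes. At least 1 of the motifs was present in 21 of the 36 (58.3%), against 21.5% of all genes. The 5 windows of meiotic recombination genes held an E-box in 0. The windows of the germline genes held a median of 14.5 CpG dinucleotides, against 6 in all genes, and no adjustment for this was made. In 11 windows of genes for widely expressed relatives of these proteins, such as the mitotic cohesin gene *Smc1a*, the E-box was found in 0 and the E2F-like motif in 5. These 11 windows held a median of 22 CpG dinucleotides, more than those of the germline genes. The windows below are those of *Ddx4*, *Sycp3* and *Hormad1*, which hold both motifs and differ in how the gene behaved in the embryos, and of *Nanos3*, which holds neither. The motifs are in capitals, and each sequence is printed 5′ to 3′ on the strand of the gene.

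Ddx4 (GRCm38.p6, chr13:112652311-112652560, minus strand): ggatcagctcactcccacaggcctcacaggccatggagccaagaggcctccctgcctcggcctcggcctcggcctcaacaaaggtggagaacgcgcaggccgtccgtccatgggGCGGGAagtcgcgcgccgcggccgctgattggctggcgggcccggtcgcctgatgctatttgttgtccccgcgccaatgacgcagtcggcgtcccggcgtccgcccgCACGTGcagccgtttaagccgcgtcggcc

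Sycp3 (GRCm38.p6, chr10:88459337-88459586, plus strand): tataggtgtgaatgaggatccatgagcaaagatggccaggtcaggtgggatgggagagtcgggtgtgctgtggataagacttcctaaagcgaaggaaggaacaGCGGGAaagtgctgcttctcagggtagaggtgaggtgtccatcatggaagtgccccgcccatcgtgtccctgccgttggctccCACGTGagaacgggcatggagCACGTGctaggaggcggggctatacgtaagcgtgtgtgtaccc

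Hormad1 (GRCm38.p6, chr3:95559427-95559676, plus strand): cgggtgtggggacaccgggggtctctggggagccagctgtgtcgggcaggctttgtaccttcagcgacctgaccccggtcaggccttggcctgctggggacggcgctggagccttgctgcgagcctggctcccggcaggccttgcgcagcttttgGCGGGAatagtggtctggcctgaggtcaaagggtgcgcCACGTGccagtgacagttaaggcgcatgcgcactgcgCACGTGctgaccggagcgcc

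Nanos3 (GRCm38.p6, chr8:84176553-84176802, minus strand): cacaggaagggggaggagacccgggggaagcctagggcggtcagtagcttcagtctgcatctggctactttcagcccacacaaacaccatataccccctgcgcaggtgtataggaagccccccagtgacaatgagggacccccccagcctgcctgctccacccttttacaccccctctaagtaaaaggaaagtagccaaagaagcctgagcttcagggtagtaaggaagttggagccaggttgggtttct

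The E-box of *Ddx4* begins 29 bases before the start, those of *Sycp3* 64 and 43 bases before it, and those of *Hormad1* 57 and 20 bases before it. The *Ddx4* window holds 31 CpG dinucleotides, that of *Hormad1* 19, that of *Sycp3* 12 and that of *Nanos3* 3. Of the 12 genes with an E-box, 7 had a tested probe, and their differences between the father groups ran from -0.48 to 0.43 on the log2 scale. Those of the 12 tested genes without an E-box ran from -0.38 to 0.69. A motif match is a description of these letters, and binding was not measured here.

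Most germline and meiosis genes were not clearly above background, or were so only in some embryos. Of the 48 probes, 16 exceeded background clearly ("well above background", a flag of the scanner software) in all 8 embryos, 16 in some and 16 in none. By gene, 15 of the 40 genes with a probe had a probe well above background in all 8 embryos, 14 were detected only in some embryos and 11 in none. Among all probes of the array, 47.6% had this flag in all 8 embryos and 33.0% in none, against 33.3% and 33.3% of the germline probes. By contrast, 23 of the 24 probes of the 18 widely expressed relatives had it in all 8 embryos. With the looser flag for signal significantly above background, the median number of germline probes detected on an array was 36.5 in place of 21. The share of all probes with the looser flag was not computed.

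The 11 genes detected on no array were spread over every functional group. They were *Dazl*, an RNA-binding protein that licenses germ cells for sexual development, *Nanos2*, which maintains male germ cells, the piRNA pathway genes *Asz1*, *Piwil1*, *Piwil2*, *Tdrd1*, *Tdrd6* and *Tdrd9*, the axis gene *Sycp2*, the meiotic double-strand break enzyme *Spo11*, and the sperm protein gene *Tex101*. The *Dazl* probe read -7.85, -6.92, -6.93 and -6.96 in HOM father embryos 1 to 4 and -7.74, -7.17, -6.64 and -6.88 in HET father embryos 1 to 4, as log2 intensity relative to the 75th percentile of the array. These values were at or near the lowest value on each array, which lay between -8.03 and -6.94, so they have no order and no fold change was computed.

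Detection varied between the embryos of each group. The number of germline probes well above background was 31, 20, 21 and 24 of 48 in HOM father embryos 1 to 4, and 28, 21, 18 and 19 in HET father embryos 1 to 4. The first embryo of each group had the highest count, and the ranges of the groups overlapped. These 2 arrays also had the lowest floors and the largest shares of all probes well above background, at 59.7% and 57.4%, and the part of this in the detection of single germline genes was not tested. *Mov10l1*, an RNA helicase of the piRNA pathway, *Hormad2*, an axis protein, and *Dmrtb1*, a transcription factor of spermatogonia, were detected on those 2 arrays alone.

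**Figure D1:**
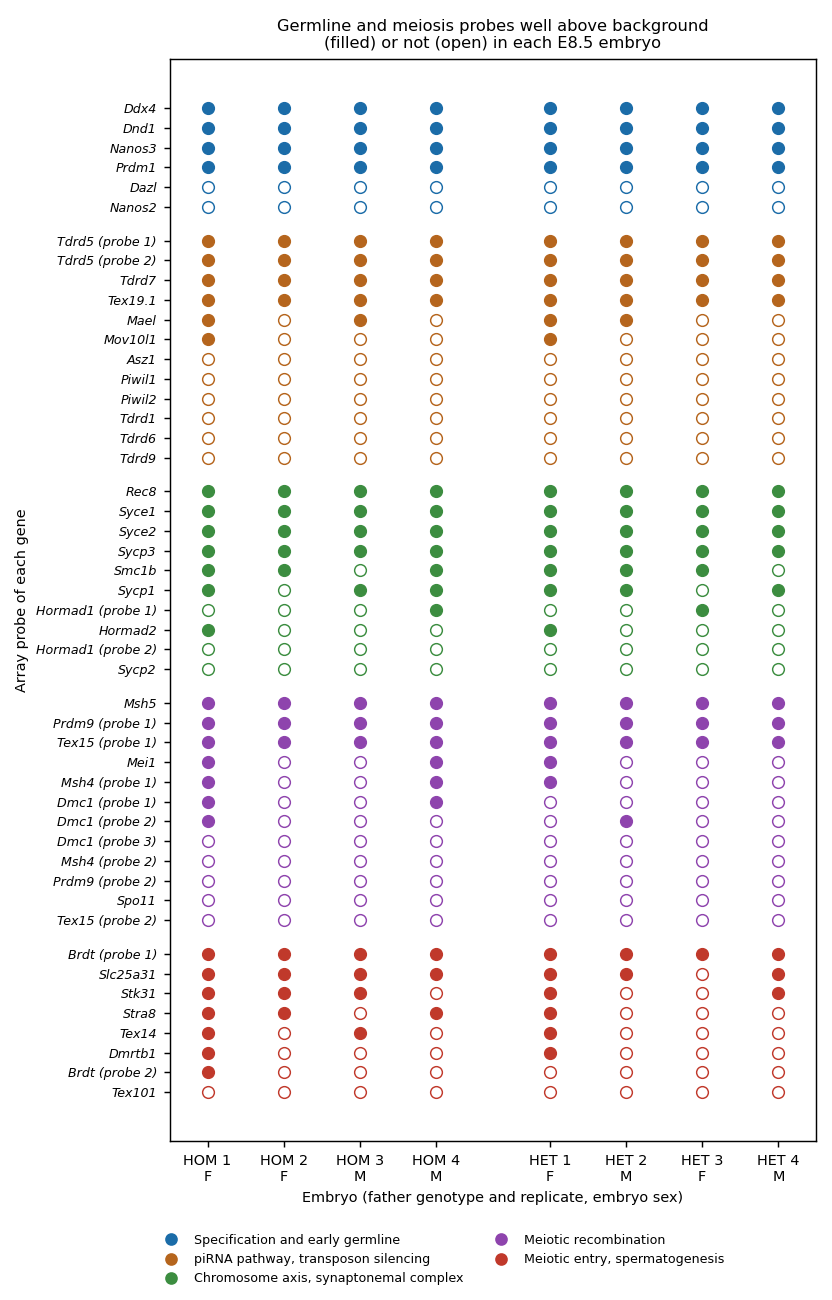
Each row is 1 array probe of a germline or meiosis gene, grouped and coloured by function, and each column is 1 E8.5 embryo with its father genotype, replicate and sex. Filled circles mark probes well above background and open circles those that were not. A total of 16 probes were filled in all 8 embryos and 16 in none, and the first embryo of each group had the most filled circles.

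Where a gene had several probes, they often disagreed. Of the 7 genes with more than 1 probe, *Tex15*, *Brdt* and *Prdm9* each had 1 probe detected in all 8 embryos, while the other probe was so on 0 arrays for *Tex15* and *Prdm9* and on 1 for *Brdt*. *Tex15* encodes a protein of transposon silencing and meiotic repair, *Brdt* a testis bromodomain protein, and *Prdm9* the histone methyltransferase that sets recombination hotspots. Detection of these 3 genes therefore rests on a single probe each. The same holds for the genes with only 1 probe on the array, *Nanos3*, *Prdm1*, *Dnd1* and *Ddx4* among them. The probes of *Hormad1*, *Msh4* and *Dmc1* were each detected on 0 to 3 arrays, and both *Tdrd5* probes on all 8.

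To determine whether expression of germline genes differed with the genotype of the father, levels were compared between the father groups. A total of 22 probes of 21 genes passed the filter on low values. None of the 22 met the study's limits (2-fold or more in size, and an adjusted p under 0.01), which 1.27% of all tested probes met (limma with Benjamini-Hochberg adjustment over all tested probes). At an unadjusted p below 0.05 there were 3 of 22, against 34.8% of all tested probes. At an adjusted p below 0.05 without a fold limit, 1 of 22 was higher in embryos of HOM fathers, against 12.3% of all tested probes, and 0 of 22 were lower, against 8.69%. The total of 1 became 2 without HOM father embryo 2, where *Dnd1* was added, against 20.6% of all tested probes. It was also 2 without HET father embryo 4, where *Stk31* was added, against 15%. The median difference over the 22 probes was 0.08 on the log2 scale, against -0.02 over all tested probes, with 15 above 0 and 7 below. Its sign turned with the scaling, to -0.046 after quantile normalisation (-0.03 over all tested probes) and -0.11 after median scaling (-0.21 over all), where 6 and 8 of the 22 probes changed sign. In 16 of the 22 the 95% confidence interval lay within a 2-fold change in either direction. For 2 of 22 probes every HOM father embryo lay above every HET father embryo, against 14.1% of all tested probes, and for 0 of 22 every one lay below, against 13.0%. These shares were not above the background of the array.

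**Figure D2:**
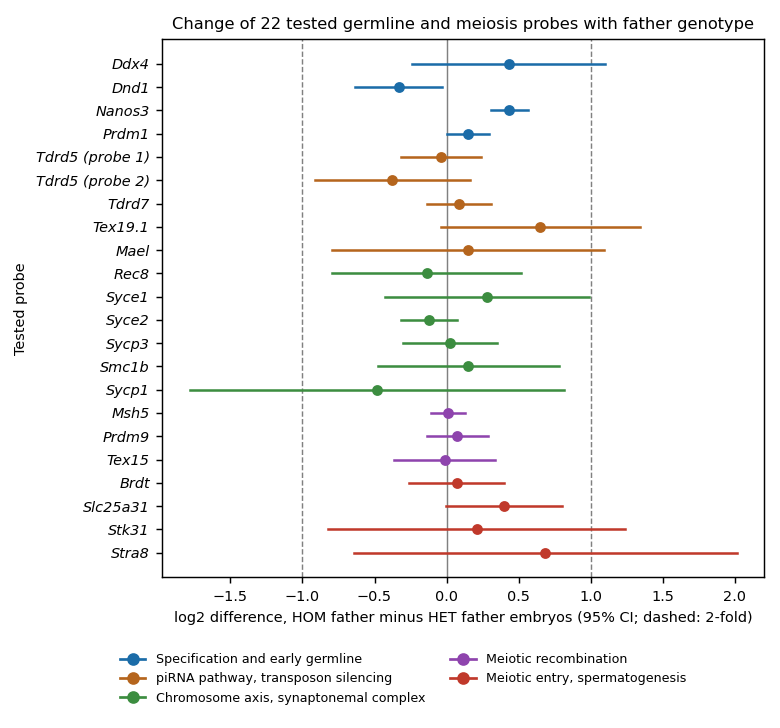
Points are the log2 difference of each tested probe (embryos of HOM fathers minus embryos of HET fathers, n = 4 each) and bars the 95% confidence interval from limma. Dashed lines mark a 2-fold change and colours the functional groups. The interval of *Nanos3* ran from 0.31 to 0.56, and those of *Stra8* and *Sycp1* crossed a dashed line by the widest margins.

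*Nanos3*, which encodes an RNA-binding protein needed for survival of primordial germ cells, was the gene that rose, and it was measured by 1 probe. Its level was 0.56, 0.77, 0.66 and 0.72 in HOM father embryos 1 to 4 and 0.24, 0.28, 0.23 and 0.23 in HET father embryos 1 to 4. Every HOM father embryo was above every HET father embryo, in females and in males. The mean was 0.68 ± 0.09 (SD, n = 4) with HOM fathers and 0.25 ± 0.02 (SD, n = 4) with HET fathers, a difference of 0.43 on the log2 scale (SE 0.06, limma adjusted p = 0.00178), which is 1.35-fold. The rise was thus below the 2-fold limit. Of the 17 genes annotated within 100 kb of *Nanos3*, 9 had a probe, 1 each, and the others were not measured. Among these 9 probes, 0 rose and 2 fell at an adjusted p below 0.05. The shares of all tested probes were 12.3% and 8.69%, and the set was chosen after the *Nanos3* value was seen. Those that fell were *D8Ertd738e*, which differed by -0.97 (limma adjusted p = 0.0110), and *Cc2d1a*, which differed by -0.31 (adjusted p = 0.0304). The largest rise was 0.46, for *Mri1*, and did not pass the threshold (adjusted p = 0.0610).

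*Prdm1*, the transcriptional repressor that specifies primordial germ cells and also acts in endoderm and other embryonic lineages, was 0.54, 0.36, 0.36 and 0.33 in HOM father embryos 1 to 4. It was 0.29, 0.20, 0.19 and 0.32 in HET father embryos 1 to 4. The groups did not overlap, but the gap between the lowest HOM and the highest HET father embryo was small and the first HOM father embryo stood above the rest. The difference of 0.15 (SE 0.06) did not pass the adjusted threshold (limma adjusted p = 0.134), and its sign turned when arrays were scaled on their medians (-0.040).

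*Dnd1*, which encodes an RNA-binding protein that protects germ cells, ran the other way. It was -1.61, -1.20, -1.67 and -1.59 in HOM father embryos 1 to 4 and -1.41, -1.22, -1.15 and -0.96 in HET father embryos 1 to 4. The second HOM father embryo lay within the range of the HET father embryos and the other 3 lay below all of them. The difference was -0.33 (SE 0.13, limma adjusted p = 0.112), and -0.44 without the second HOM father embryo (adjusted p = 0.0314).

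*Ddx4*, the RNA helicase also called MVH or VASA that marks the later germline, was detected in all 8 embryos. It was -1.52, -1.04, -1.16 and -1.42 in HOM father embryos 1 to 4 and -1.34, -1.10, -1.98 and -2.45 in HET father embryos 1 to 4. HET father embryos 3 and 4 were the lowest and the other 6 overlapped. The difference was 0.43 with an SE of 0.29 (limma adjusted p = 0.333), and 0.19 without HET father embryo 4.

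**Figure D3:**
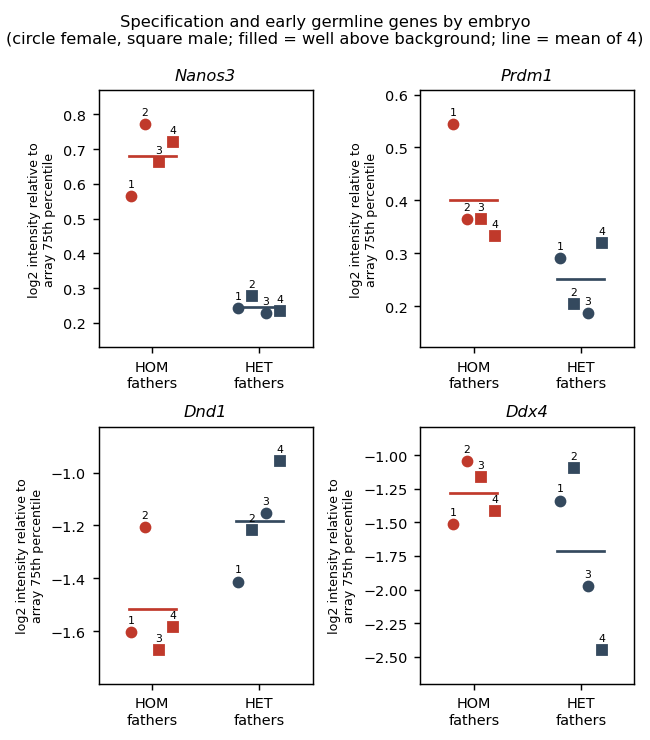
Each panel shows 1 gene with its own axis in log2 intensity relative to the 75th percentile of the array, circles being female and squares male embryos, numbers the replicate and lines the mean of 4. All symbols are filled because all 4 genes were well above background in every embryo. The groups do not overlap for *Nanos3* and *Prdm1*, and do for *Dnd1* and *Ddx4*.

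Of 12 listed genes of the piRNA pathway and transposon silencing, 4 were tested and none passed the adjusted threshold. *Tex19.1*, a mammal-specific gene that restrains retrotransposons in germ cells, placenta and pluripotent cells, was 1.22, 1.64, 0.69 and 0.98 in HOM father embryos 1 to 4 and 0.92, 0.64, 0.67 and -0.30 in HET father embryos 1 to 4. The second HOM father embryo was the highest and the fourth HET father embryo the lowest, with the others overlapping. The difference was 0.65 (SE 0.30, 95% confidence interval -0.04 to 1.34, limma adjusted p = 0.165), and 0.39 without HET father embryo 4. *Tdrd7*, a Tudor protein of RNA granules that also acts in the lens, ranged from 1.00 to 1.37 over the 8 embryos, with a difference of 0.09 (limma adjusted p = 0.562).

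The probes of *Tdrd5*, another Tudor protein, differed by -0.38 and -0.04, and neither passed the threshold. *Mael*, a component of germ granules, was well above background in 4 embryos, 2 from each group, and differed by 0.15 with a confidence interval of -0.79 to 1.09, which includes a 2-fold rise.

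Genes of the chromosome axis and synaptonemal complex, which pair homologous chromosomes at meiosis, were the group with the most tested genes, with 6 of 9, and none passed the adjusted threshold. *Syce2*, a central element protein, was steady at 2.91 to 3.24 in all 8 embryos, with a difference of -0.12 (limma adjusted p = 0.352). *Rec8*, the meiotic cohesin subunit, was 1.82, 2.00, 1.13 and 1.25 in HOM father embryos 1 to 4 and 1.32, 2.22, 1.98 and 1.25 in HET father embryos 1 to 4. Each group held both high and low embryos, and the difference was -0.14 (SE 0.28, limma adjusted p = 0.769).

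*Sycp3*, a lateral element protein, ranged from -3.58 to -3.05, with a difference of 0.02 (95% confidence interval -0.30 to 0.35). *Syce1*, a central element protein, was well above background in all 8 embryos and differed by 0.28 (limma adjusted p = 0.559). *Smc1b*, the meiosis-specific cohesin subunit, differed by 0.15. *Sycp1*, the transverse filament protein, differed by -0.48 with an interval of -1.78 to 0.82. It read -6.41 in HOM father embryo 2, where it was not well above background, and -4.22 to -3.78 in the other HOM father embryos. Without that embryo the difference was 0.10.

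*Hormad1*, a meiotic axis protein, was not tested because it was detected in 2 embryos alone. The detected probe read -5.96, -5.46, -5.70 and -2.54 in HOM father embryos 1 to 4 and -7.76, -6.08, -2.31 and -6.89 in HET father embryos 1 to 4. On this probe 1 embryo of each father genotype, a male and a female, was thus high. The other *Hormad1* probe was well above background in no embryo, and read -7.05 in HOM father embryo 4 and -6.92 in HET father embryo 3. The same 2 embryos were the highest for *Dppa3*, a maternal and primordial germ cell gene, which read -3.27 in HOM father embryo 4 and -1.88 in HET father embryo 3, and -6.10 to -4.55 in the others. *Nobox*, an oocyte homeobox gene, was above background only in HOM father embryo 4, at -1.78, and at -7.77 to -6.41 elsewhere. *Dppa3* and *Nobox* were chosen after their values were seen, and 8 embryos with 2 high values do not allow a test of the relation.

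**Figure D4:**
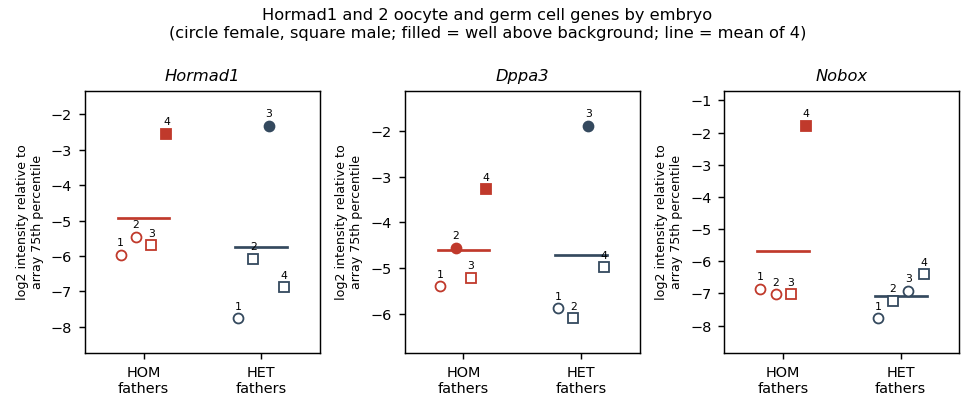
Each panel shows 1 probe with its own axis in log2 intensity relative to the 75th percentile of the array, circles being female and squares male embryos. Filled symbols were well above background, numbers are replicates and lines the mean of 4. The *Hormad1* probe shown was above background in HOM father embryo 4 and HET father embryo 3, which also gave the highest values of *Dppa3*. The other *Hormad1* probe was well above background in no embryo.

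For meiotic recombination, 3 of 7 genes were tested and none passed the adjusted threshold. *Msh5*, a component of the crossover-promoting MutS complex, was the steadiest of the tested germline probes, at -2.33 to -2.17 in the 8 embryos, with a difference of 0.01 (95% confidence interval -0.11 to 0.13). *Prdm9* differed by 0.08 (interval -0.14 to 0.29) and *Tex15* by -0.01 (interval -0.37 to 0.34). *Mei1*, which is needed for double-strand breaks, *Msh4*, the partner of *Msh5*, and *Dmc1*, the meiotic strand exchange recombinase, were detected in 3, 3 and 3 embryos respectively, counting any of their probes, and were not tested.

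For meiotic entry and spermatogenesis, 4 of 7 genes were tested and none passed the adjusted threshold. *Stra8*, the retinoic acid-induced gatekeeper of meiosis, read -5.29, -3.17, -5.91 and -4.57 in HOM father embryos 1 to 4 and -5.22, -5.21, -5.003 and -6.25 in HET father embryos 1 to 4. It was well above background in 3 HOM father embryos and 1 HET father embryo, so it entered the test mainly through the HOM father group. The second HOM father embryo was the highest, and the difference was 0.69 (SE 0.57, limma adjusted p = 0.439), or 0.17 without that embryo. *Slc25a31*, the germ cell adenine nucleotide carrier, was detected in 7 embryos, and its difference of 0.40 (SE 0.17) gave a limma adjusted p of 0.149. *Stk31*, a testis kinase, differed by 0.21 (interval -0.82 to 1.24), and by 0.68 without HET father embryo 4 (adjusted p = 0.0479), in which it read -3.20, the highest of the 8 embryos. *Brdt* differed by 0.07 (interval -0.26 to 0.40). *Tex14*, which keeps germ cell bridges open, was detected in 3 embryos and not tested.

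Several germline genes varied more between embryos than probes of like signal did. The median SD within a father group was 0.26 over the 22 tested probes and 0.13 over all tested probes, and 17 of the 22 exceeded the median of all tested probes in the same decile of signal. *Stra8* (0.92), *Sycp1* (0.90) and *Stk31* (0.71) had the largest SDs, against 0.34 in their decile, which was the lowest. They were well above background in only 4, 6 and 5 embryos respectively. Among the brighter probes *Tex19.1* (0.47, against 0.10 in its decile) and *Rec8* (0.45, against 0.09) stood out.

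Markers of extraembryonic and maternal tissue also varied. *Ascl2*, a trophoblast gene, read 1.67 in HOM father embryo 2, where *Stra8*, *Tex19.1* and *Tfap2c* were the highest, and -1.98 to -1.29 elsewhere. *Tfap2c*, which marks trophoblast and primordial germ cells, read 1.01 there and -0.15 to 0.16 elsewhere. *Prl8a2*, a decidual gene, read 0.29, 4.14, 4.45 and 1.30 in HOM father embryos 1 to 4 and 1.85, 1.88, -1.42 and -3.99 in HET father embryos 1 to 4. It was lowest in HET father embryos 4 and 3, which were also the lowest for *Ddx4*. Of the 9 trophoblast probes 6 were detected in every embryo, while the defining spongiotrophoblast marker *Tpbpa* was detected in none. The mean level of the 7 tested trophoblast probes ran from -0.13 to 1.47 over HOM father embryos and from 0.28 to 0.71 over HET father embryos. That of the 3 decidual probes ran from 0.65 to 1.67 and from -1.07 to 0.94. Of these, only *Prl8a2* had a difference above 0 between the father groups. The other 2, of *Dcn* and *Igfbp1*, lay at -0.06 to -0.01, so the decidual list did not move together. At an adjusted p below 0.05, 1 of the 7 trophoblast probes fell (*Gcm1*, by 1.07, limma adjusted p = 0.0217), against 8.69% of all tested probes. No decidual probe passed the threshold. The largest differences of these lists did not pass it, at 2.97 for *Prl8a2* (adjusted p = 0.215) and 1.88 for 1 probe of *Prl3d1*, a trophoblast giant cell gene (adjusted p = 0.208). The part of such tissue in the values of the germline genes was not tested.

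**Figure D5:**
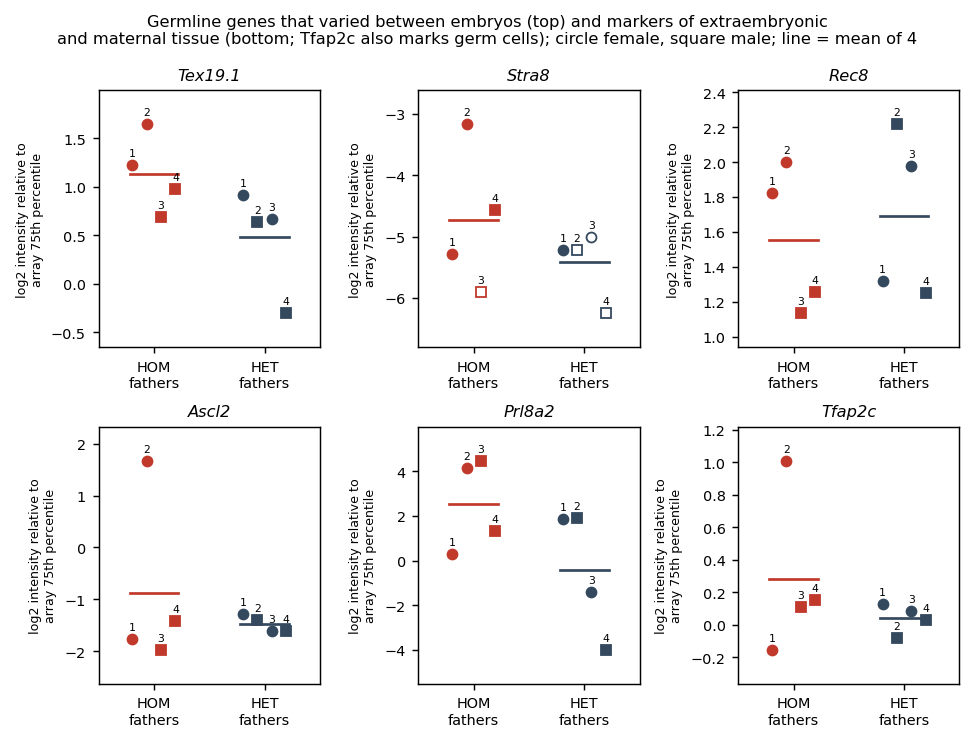
Each panel shows 1 gene with its own axis in log2 intensity relative to the 75th percentile of the array. The upper panels are germline genes and the lower panels *Ascl2*, *Prl8a2* and *Tfap2c*, with circles for females, squares for males, open symbols for values not well above background and lines for the mean of 4. HOM father embryo 2 is the highest of the 8 for *Tex19.1*, *Stra8*, *Ascl2* and *Tfap2c*.

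Further germline genes gave a similar account. Of 17 tested probes among 30 other genes of meiosis and the piRNA pathway, 1 rose and 0 fell at an adjusted p below 0.05. The shares of all tested probes were 12.3% and 8.69%. The probe that rose was that of *Taf7l*, a germ cell transcription factor subunit. It was 1.38, 1.23, 1.25 and 1.43 with HOM fathers and 1.17, 1.03, 0.96 and 1.09 with HET fathers, a difference of 0.26 (limma adjusted p = 0.0369). Among 10 tested probes of 11 primordial germ cell markers, 0 rose and 1 fell, against the same shares of all tested probes. Without a threshold, 8 of the 10 differences lay above 0 and 2 below. *Kit*, the receptor for stem cell factor, which is also expressed in blood and other lineages, fell by 0.25 (limma adjusted p = 0.0194). *Pou5f1*, *Ifitm3*, *Prdm14* and *Nanog* did not pass the threshold, with differences of 0.07, 0.41, -0.07 and 0.34. Nor did *Alpl*, with a difference of 0.17 (limma adjusted p = 0.0621), and *Dppa2*, with 0.45 (adjusted p = 0.264).

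Of the 23 probes of 17 repressors of germline genes, 2 rose and 2 fell, against 12.3% and 8.69% of all tested probes. *Dnmt1*, the maintenance DNA methyltransferase, differed by -0.26 (limma adjusted p = 0.0294) and its cofactor *Uhrf1* by -0.22 (adjusted p = 0.0343), while 1 probe of the histone methyltransferase gene *Ehmt1* differed by 0.42 (adjusted p = 0.0118), its other probe by -0.01 (adjusted p = 0.877), and *Setdb1* by 0.21 (adjusted p = 0.0491). *E2f6* and *Mga* differed by 0.03 and -0.07. Of 24 probes of the widely expressed relatives, 2 rose and 2 fell, against the same shares, with the probes of *Pum2* in opposite directions (0.22 and -0.29). No probe of these lists reached 2-fold. Of 4 tested probes for somatic cells of the adult gonad, 2 rose, against 12.3% of all tested probes. Both were of the steroid transport gene *Star* (by 1.01 and 0.98, limma adjusted p = 0.0491 and 0.0213). The Sertoli cell hormone gene *Amh* was detected in no embryo.

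Whether the germline genes depended on the sex of the embryo was tested over both father groups. None of the 22 tested probes differed between females and males at an adjusted p below 0.05, against 0.121% of all tested probes, and 3 did at an unadjusted p below 0.05, against 5.22% (limma, lowest adjusted p = 0.914). *Tex19.1* was one of these, with a mean of 1.11 in females and 0.50 in males. *Prdm9* and 1 probe of *Tdrd5* were the others, higher in females by 0.19 and 0.23. The effect of the father did not depend on sex for any of the 22 at an adjusted p below 0.05, against 0.0639% of all tested probes, and 0 did at an unadjusted p below 0.05, against 4.52%. The test rested on 2 embryos of each sex in a group.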

How the data were processed

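RNA of 8 single embryos was labelled with Cy3 and hybridised to 1 array each. The authors scanned the arrays and extracted spot intensity with Agilent Feature Extraction 11.0.1.1, which subtracts background within an array and sets a floor, and the deposited intensities were not normalised between arrays. The deposited flags (other values of 0 or 1) mark spots well above background, saturated or outlying. The authors' series table held the same intensities within 0.5%.

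The log2 of the processed signal was taken, each array was shifted by its own 75th percentile, outlier spots were left out, and spots of a probe were averaged. Probes entered the tests where at least 4 of 8 arrays had them well above background and not in the lowest 20% of signals. Father genotype, sex (with father as covariate) and their interaction were fitted over all 29720 tested probes with limma 3.58.1 in R 4.3.3, two-sided, with Benjamini-Hochberg adjustment. Calls used the study's limits of an adjusted p below 0.01 and 2-fold, and a looser limit of 0.05. The number of arrays limits the precision. Accessions named 27235 of 55681 probes through a RefSeq gene table of GRCm38.p6, and the array design is annotated on mm9. Where a listed germline gene had several tested probes, both are given. Normexp, an alternative, used median spot and background signals. Every gene of the list is named, values by embryo are given for genes past the looser threshold and for *Prdm1*, *Nanos3*, *Dnd1*, *Dazl* and *Ddx4*, and those of other genes were chosen after their values were seen. The genes and lists were chosen with earlier results of these data known. The fits were tested on simulated data. Other scalings, filters, variance models, blocks and omitted arrays were tried.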

Additional observations from a re-analysis of the deposited data

Results flagged for a closer look

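A sample far from the others of its group was looked for in 46 groups of 4 embryos (22 tested probes and the count of detected probes, in each father group), where chance alone flags about 1 in 20, or 2.3. It was found in 2. *Prdm1* was highest in HOM father embryo 1, whose gap to the next embryo was 0.846 of the range of its group. *Sycp1* was lowest in HOM father embryo 2, with a gap of 0.835 of the range, and there the probe was not well above background. Both exceed Dixon's 95% critical value for 4 samples. No difference of the father effect between sexes passed its threshold in the germline probes.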

How the results depend on the processing

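The father comparison of the germline probes was repeated under 20 other settings, and 0 probes met the limits of 2-fold and an adjusted p below 0.01 in each. *Nanos3* remained higher with HOM fathers at an adjusted p below 0.05 in all, with differences of 0.24 to 0.47 and a largest adjusted p of 0.0183. The number of the 22 probes at an adjusted p below 0.05 was 1 in the report, against 21% of all tested probes. It was 2 after median scaling (1 higher and 1 lower, with *Dnd1* added), against 42.7%. After normexp background correction it was 3 (2 higher and 1 lower, with *Dnd1* and *Prdm1* added), against 23.3%. When single embryos were left out it was 1 to 2, against 14% to 20.6%. Without HOM father embryo 2 it was 2, with *Dnd1* at -0.44 (limma adjusted p = 0.0314), against 20.6% of all tested probes. Without HET father embryo 4 it was 2, with *Stk31* added, against 15%. Median scaling moved the median of all tested probes to -0.21, and relative to that shift *Prdm1*, which turned to -0.040, lay above it. It also moved the share of higher calls among all probes at an adjusted p below 0.05 from 58.6% to 18.4%. The causes were not tested.

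The labels number embryos 1 to 4 in both groups, but same-numbered embryos did not deviate together (r = 0.189, -0.0861, -0.132 and 0.146), so the numbers were not used as a pairing. With the replicate block the count was 2 of 22, both higher, with *Slc25a31* added (limma adjusted p = 0.0267), against 11.7% of all tested probes. The median difference of the germline probes ranged from 0.04 to 0.11 when single embryos were left out, and was -0.046 after quantile normalisation, -0.11 after median scaling and 0.018 after normexp. With the flag for signal significantly above background in place of well above background, the median number of germline probes detected on an array was 36.5 of 48 in place of 21. A median of 40.5 of 48 lay at or above the 20th percentile of the array, a limit that by definition leaves out only the lowest 20% of all probes. The sex and interaction counts stayed at 0 in all settings run. Without both arrays of lowest floor, an alternative chosen after seeing the data, *Nanos3* was the 1 probe of 22 below 0.05, against 11.9% of all tested probes. Signal near background limits what can be said of the 26 untested probes.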
